A study of Mus musculus with 8 samples.

Results

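Stellate cells were taken from mouse livers 5 d after the bile duct had been tied off (bile duct ligation, BDL) and compared with Gli1+ peribiliary mesenchymal cells from uninjured livers. The question was which functions of the resting Gli1+ cells are reached by the activated stellate cells and which stay apart. The comparison used 4 of the 8 RNA-seq libraries of the series, chosen by their titles alone: 2 of stellate cells 5 d after BDL and 2 of uninjured Gli1+ cells. All the mice, those that gave stellate cells included, were 8 weeks old, were of mixed background (C57BL/6, SWR/J) and had the genotype Gli1:CreER+/-; Ai9+/-, so that a Cre made from the Gli1 gene could switch on a red fluorescent reporter. The labels do not give the markers by which either population was sorted. The other 4 libraries, 2 of Gli1+ cells 5 d after BDL and 2 of uninjured stellate cells, entered the same model for its estimate of spread, and uninjured stellate cells are given as context. Cell population and injury both differ between the compared groups, so their parts in a difference cannot be told apart. Nothing in the labels says that replicates 1 and 2 are different animals. The spread behind the p-values is therefore that between libraries and may be technical.

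Hepatic stellate cells lie between the sinusoidal endothelium and the hepatocytes. At rest they store vitamin A as retinyl esters, and after injury they can turn into myofibroblasts, which contract and secrete collagen. Gli1, a transcription factor of the Hedgehog pathway, marks mesenchymal cells of the portal tract, where fibroblasts around the bile ducts and vessels build a matrix rich in elastic fibres.

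The libraries held 11261775 to 19180370 reads. Expression is given as CPM, read counts scaled to a fixed library total, and 0.156 to 0.266 CPM stood for 3 reads. The rank correlation over genes was 0.869 between the stellate BDL libraries and 0.850 between the uninjured Gli1+ libraries. Mitochondrial transcripts were 1.72% and 2.73% of reads in stellate BDL libraries, against 3.51% and 2.21% in uninjured Gli1+ libraries. Both labels were checked against their defining genes, with identifiers and coordinates on GRCm38. Gli1 (ENSMUSG00000025407.6, chr10:127329882-127341974, minus strand) had 0.0584 and 0 CPM in stellate cells after BDL, which was 1 read in both libraries together, against 14.9 and 7.59 CPM in uninjured Gli1+ cells. Lrat (ENSMUSG00000028003.6, chr3:82892579-82903973, minus strand), which makes the retinyl esters that stellate cells store, had 2160.5 and 1907 CPM in stellate cells after BDL, against 35.9 and 13.8 CPM in uninjured Gli1+ cells. Each gene was high in the libraries named for it and the groups did not overlap. The adjusted p-values were 0.0209 for Gli1 and 0.00107 for Lrat (limma on log2(CPM + 1), Benjamini-Hochberg). The Gli1 call was lost without uninjured Gli1+ library 1 (adjusted p = 0.0694), without stellate BDL library 1 (adjusted p = 0.161) and without stellate BDL library 2 (adjusted p = 0.157). Its adjusted p was 0.106 in edgeR's quasi-likelihood test and 0.143 with no filter on low values.

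Of 16446 genes tested, 1167 differed past an adjusted p of 0.05, which was 7.1% of them: 424 were higher (2.58%) and 743 lower (4.52%) in stellate cells after BDL than in uninjured Gli1+ cells. Leaving out stellate BDL library 1 left 241 calls and leaving out stellate BDL library 2 left 290, while leaving out uninjured Gli1+ library 1 left 633. A core of 67 higher and 137 lower genes was called in the fit of all libraries and again in each of the 8 fits that left out 1 library, and "held" below means a call of that kind. A missed threshold does not show that a gene was reached, so the 95% interval of its log2 fold change was used: a gene is called within 4-fold here where the whole interval lay between -2 and 2 and the average of the 2 group means was at least 10 CPM. That was so for 5263 of 10080 genes at such levels (52.2%), 5 of which were also called as different. For 2442 it was so in each of the 8 fits as well, and the count was 3396 without stellate BDL library 1 and 3299 without stellate BDL library 2. Genes neither called nor within 4-fold are described as not resolved. Counts in the gene lists below are to be read beside these shares of all genes: 2.58% higher, 4.52% lower and 52.2% within 4-fold. Only list genes with an average of at least 10 CPM could be within 4-fold. The median log2 fold change of all tested genes was -0.07, and every fold change here is a difference of log2(CPM + 1), so the change of genes with few reads is understated. In bulk RNA, fewer cells of a type and less RNA per cell cannot be told apart.

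**Figure D1:**
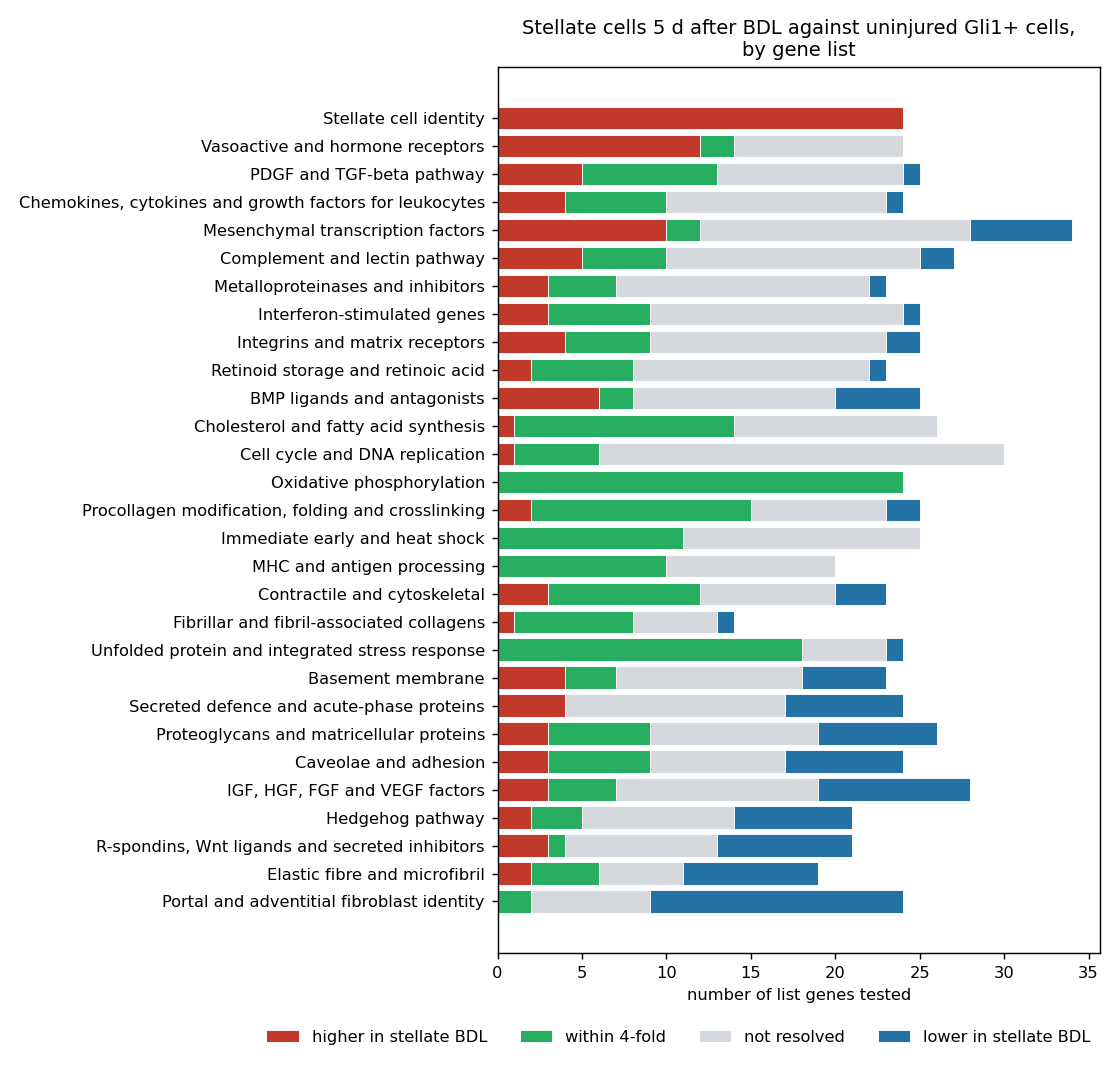
Number of tested genes in each of 29 gene lists (x axis), split by their state in stellate cells 5 d after BDL against uninjured Gli1+ cells: called higher, within 4-fold, not resolved or called lower. All 24 stellate identity genes were higher, all 24 oxidative phosphorylation genes were within 4-fold, and 15 of 24 portal fibroblast genes were lower. The lists were chosen with earlier results of these data known.

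Col1a1, Col1a2 and Col3a1, the chains of the collagens that make up most scar tissue, were within 4-fold of the uninjured Gli1+ level in stellate cells after BDL. Of 14 tested genes of fibrillar and associated collagens, 1 was higher (all genes: 2.58%) and 1 lower (all genes: 4.52%). Of the 13 with an average of at least 10 CPM, 7 were within 4-fold, a share close to the 52.2% of all such genes and so not a result about collagens, and 1 of them was so in each left-out fit. Against uninjured stellate cells 0 of the 14 passed the threshold in either direction by limma, limma-voom or edgeR. DESeq2 called 3 of them higher, and 5 were higher by limma at an unadjusted p under 0.05. The median log2 fold change of the list was -0.68, against -0.07 for all genes. Col1a2, a chain of type I collagen, had 1097 and 1648 CPM in stellate cells after BDL, against 2306 and 1770.5 CPM in uninjured Gli1+ cells, a log2 fold change of -0.59 (95% interval -1.41 to 0.24). Its partner chain Col1a1 (ENSMUSG00000001506.10, chr11:94936224-94953042, plus strand) had 989 and 1835 CPM in stellate cells after BDL, against 2821 and 2166 CPM in uninjured Gli1+ cells, and its interval was -1.85 to 0.10. Col3a1, the chain of type III collagen, had 1993 and 4131 CPM in stellate cells after BDL, against 5326 and 4558 CPM in uninjured Gli1+ cells, with an interval of -1.82 to 0.26. In all 3 genes both stellate BDL libraries lay below both uninjured Gli1+ libraries, and the groups did not overlap. Uninjured stellate cells had 427 and 636 CPM of Col1a2, 187 and 345 CPM of Col1a1 and 826 and 1379.7 CPM of Col3a1, below both compared groups. The intervals of Col1a1 and Col3a1 were wider when 1 library was left out: -2.38 to 0.25 without uninjured Gli1+ library 2 and -2.53 to -0.12 without stellate BDL library 2 for Col1a1, and -2.08 to 0.74 without uninjured Gli1+ library 1, -2.31 to 0.52 without uninjured Gli1+ library 2 and -2.57 to -0.04 without stellate BDL library 2 for Col3a1. The number of these genes within 4-fold was 4 without uninjured Gli1+ library 1 or 2 and 1 without stellate BDL library 2. Col6a2, a chain of type VI collagen, had 187 and 265 CPM in stellate cells after BDL, against 823 and 927 CPM in uninjured Gli1+ cells, and was lower (log2 fold change -1.97 ± 0.29 SE, adjusted p = 0.00625). That call was lost without stellate BDL library 1 (adjusted p = 0.0868). Col5a1, a chain of the type V collagen that seeds fibrils, had 1160.4 and 1679.8 CPM in stellate cells after BDL, against 518 and 348 CPM in uninjured Gli1+ cells. Its adjusted p was 0.0403, and the call was lost without uninjured Gli1+ library 1 (adjusted p = 0.0935), without uninjured Gli1+ library 2 (adjusted p = 0.181), without Gli1+ BDL library 1 (adjusted p = 0.0741), without Gli1+ BDL library 2 (adjusted p = 0.0721), without stellate BDL library 1 (adjusted p = 0.149) and without stellate BDL library 2 (adjusted p = 0.28).

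Several enzymes and helpers that hydroxylate, fold and trim procollagen were at closely similar levels in both populations. Of the 24 genes of procollagen modification, folding and crosslinking at such levels, 13 were within 4-fold, again a share close to that of all genes, and 9 of them were so in each left-out fit. Of all 25 tested, 2 were higher (all genes: 2.58%) and 2 lower (all genes: 4.52%). In left-out fits the number higher was 0 without uninjured Gli1+ library 1 or 2 or without stellate BDL library 1 and 1 without Gli1+ BDL library 1 or 2 or without stellate BDL library 2, and the number lower 1 without uninjured Gli1+ library 1 or 2 or without Gli1+ BDL library 1 or 2 or without stellate BDL library 2 and 0 without stellate BDL library 1. P4hb, the subunit that prolyl 4-hydroxylase shares with protein disulfide isomerase, had 1028 and 808 CPM in stellate cells after BDL, against 628 and 781 CPM in uninjured Gli1+ cells (interval -0.51 to 1.27). Pcolce, which enhances removal of the procollagen C-propeptide, had 1035 and 892 CPM in stellate cells after BDL, against 687 and 875 CPM in uninjured Gli1+ cells (interval -0.64 to 1.26). Adamts2, which removes the N-propeptide, had 317 and 356 CPM in stellate cells after BDL, against 315 and 295 CPM in uninjured Gli1+ cells (interval -0.52 to 0.80). For each of the 3 genes the difference between the group means was below 2-fold. Loxl1, a lysyl oxidase needed for elastic fibres, had 97.8 and 131 CPM in stellate cells after BDL, against 453 and 625 CPM in uninjured Gli1+ cells, and was lower (log2 fold change -2.22 ± 0.31 SE, adjusted p = 0.00481), a call lost without stellate BDL library 1 (adjusted p = 0.0703). Loxl2, a lysyl oxidase that crosslinks collagen, was not resolved against Gli1+ cells, with 166 and 244 CPM in stellate cells after BDL and 97.1 and 72.9 CPM in uninjured Gli1+ cells. Its level in uninjured stellate cells was 24.4 and 25.1 CPM, and the difference between stellate BDL and uninjured stellate cells had an adjusted p of 0.0236, a call lost in 9 of 18 alternative settings (adjusted p up to 0.35).

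**Figure D2:**
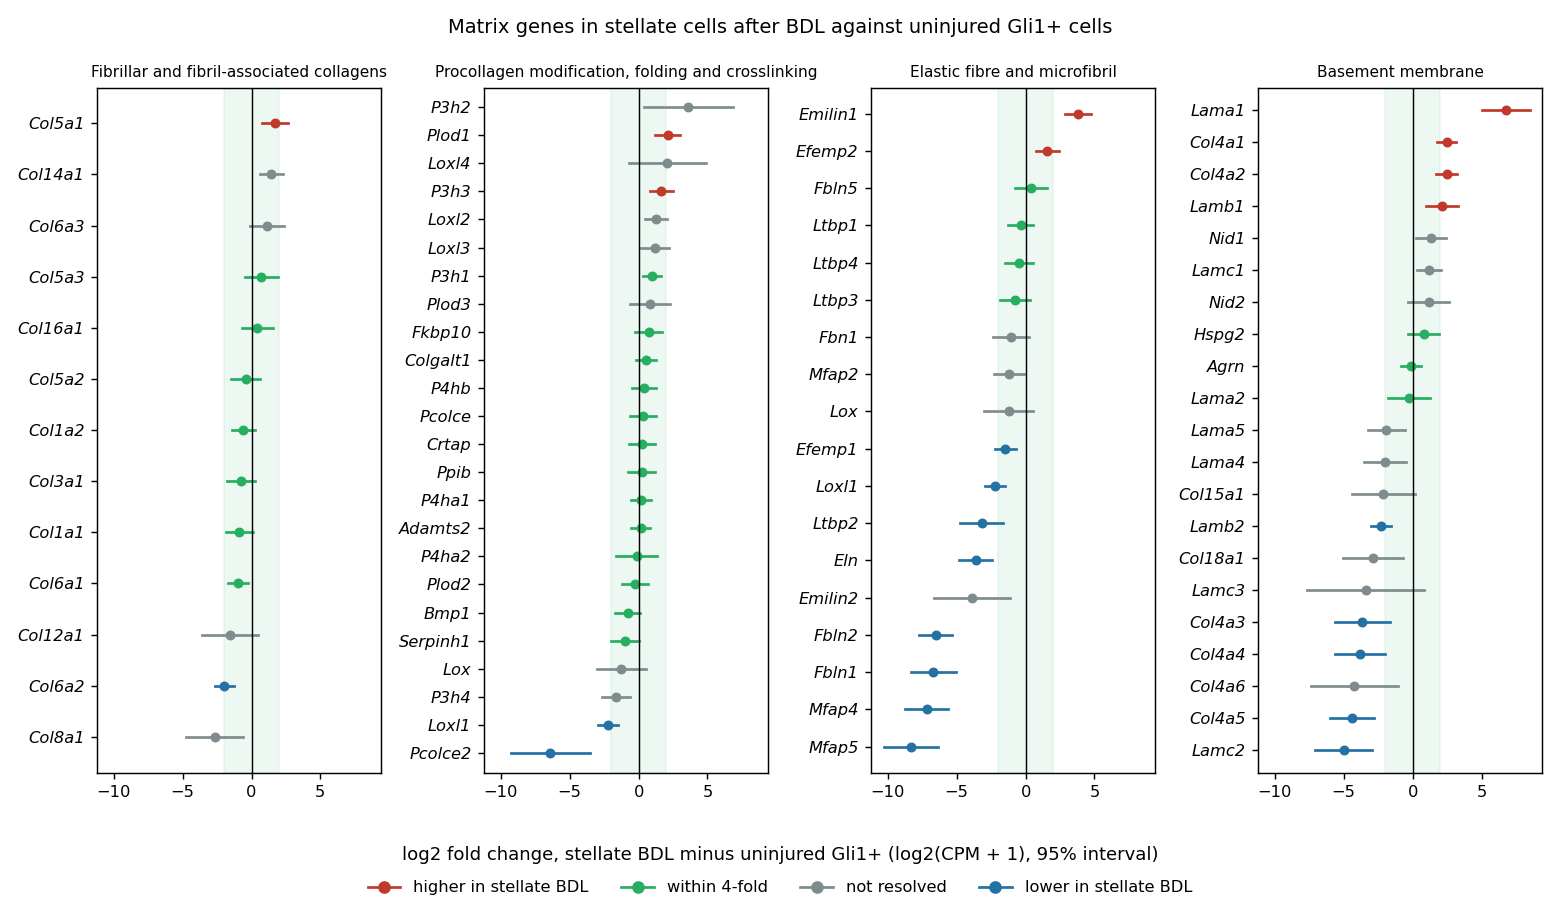
Log2 fold change on the log2(CPM + 1) scale of stellate cells after BDL over uninjured Gli1+ cells (points) with its 95% interval (lines) for the matrix genes with an average of at least 10 CPM, in 4 gene lists. Type I and III collagen chains and most processing enzymes lie inside the shaded 4-fold band, while Fbln1, Fbln2 and Mfap4 lie far to its left and Lama1, Col4a1 and Col4a2 to its right.

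Fbln1, Fbln2 and Mfap4, of the elastic fibre, were lower in stellate cells after BDL than in uninjured Gli1+ cells. Counts of their list stand against 2.58% higher and 4.52% lower among all genes, and 18 members averaged at least 10 CPM. Of 19 tested elastic fibre and microfibril genes, 8 were lower in stellate cells after BDL than in uninjured Gli1+ cells, 4 of them held, 2 were higher and 4 were within 4-fold. The number lower was 4 without stellate BDL library 1, the number higher 1 without uninjured Gli1+ library 1 or 2 or without Gli1+ BDL library 1 or 2 or without stellate BDL library 1 or 2, and the number within 4-fold was 2 without stellate BDL library 2. Fbln1, an elastic fibre and basement membrane glycoprotein, had 3.62 and 24.1 CPM in stellate cells after BDL, against 1399.5 and 887 CPM in uninjured Gli1+ cells (log2 fold change -6.69 ± 0.70 SE, adjusted p = 0.00159). Fbln2, its relative, had 1.58 and 4.33 CPM in stellate cells after BDL, against 379 and 311 CPM in uninjured Gli1+ cells (-6.54 ± 0.52 SE, adjusted p = 0.000531). Mfap4, a microfibril-associated protein, had 2.34 and 0.510 CPM in stellate cells after BDL, against 417 and 255 CPM in uninjured Gli1+ cells (-7.19 ± 0.70 SE, adjusted p = 0.00113). All 3 genes were low in both stellate groups, and uninjured stellate cells had 6.42 and 3.70 CPM of Fbln1, 0.245 and 0.156 CPM of Fbln2 and 0.428 and 3.55 CPM of Mfap4. Eln, elastin itself, had 26.9 and 56.7 CPM in stellate cells after BDL, against 401 and 607 CPM in uninjured Gli1+ cells (-3.62 ± 0.53 SE, adjusted p = 0.00589), a call lost without stellate BDL library 1 (adjusted p = 0.0712). Ltbp1, which holds latent TGF-beta on microfibrils, was within 4-fold, with 149 and 208 CPM in stellate cells after BDL and 215 and 238 CPM in uninjured Gli1+ cells (interval -1.25 to 0.53). Emilin1, an elastic fibre glycoprotein, ran the other way: it had 1272 and 1279 CPM in stellate cells after BDL, against 118 and 71.6 CPM in uninjured Gli1+ cells (3.78 ± 0.41 SE, adjusted p = 0.0017).

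Basement membrane genes differed by chain. In the list 15 of 23 tested genes had a negative log2 fold change, and its median was -1.98. Its counts stand against 2.58% higher and 4.52% lower among all genes. Col4a1 and Col4a2, which together form the common type IV collagen, and Lama1, a laminin alpha chain, were higher in stellate cells after BDL, and all 3 calls held. Col4a1 had 1343 and 1888 CPM in stellate cells after BDL, against 312 and 259 CPM in uninjured Gli1+ cells (2.48 ± 0.30 SE, adjusted p = 0.00254). Lama1 had 341 and 334 CPM in stellate cells after BDL, against 7.10 and 0.228 CPM in uninjured Gli1+ cells (6.75 ± 0.76 SE, adjusted p = 0.0019). Agrn, the heparan sulphate proteoglycan agrin, was within 4-fold, with 79.6 and 87.8 CPM in stellate cells after BDL and 93.5 and 90.7 CPM in uninjured Gli1+ cells. Of 23 tested genes of the group, 4 were higher and 5 lower, and 0 of the lower calls held. The number lower was 2 without uninjured Gli1+ library 2, 8 without uninjured stellate library 1 or 2, 0 without stellate BDL library 1 and 1 without stellate BDL library 2.

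Other matrix proteins fell on both sides. Of 26 tested proteoglycans and matricellular proteins, 3 were higher (all genes: 2.58%), 7 lower (all genes: 4.52%) and 6 within 4-fold. The number higher was 1 without stellate BDL library 2, the number lower 4 without uninjured Gli1+ library 1 or without stellate BDL library 1 and the number within 4-fold 3 without stellate BDL library 2. Fn1, fibronectin, had 1391 and 1908 CPM in stellate cells after BDL, against 1486 and 796 CPM in uninjured Gli1+ cells, with overlapping groups (interval -0.26 to 1.43). Sparc, a collagen-binding protein, had 5233 and 6064 CPM in stellate cells after BDL, against 3564 and 3722 CPM in uninjured Gli1+ cells (interval -0.20 to 1.45). Both were within 4-fold, also in each left-out fit. Tgfbi, a TGF-beta-induced matrix protein, had 4739 and 4635 CPM in stellate cells after BDL, against 405 and 154 CPM in uninjured Gli1+ cells, and was higher (4.22 ± 0.44 SE, adjusted p = 0.00156). Fmod and Ogn, small leucine-rich proteoglycans that regulate collagen fibrils, were lower. Fmod had 2.74 and 1.27 CPM in stellate cells after BDL, against 345 and 143 CPM in uninjured Gli1+ cells (-6.26 ± 0.66 SE, adjusted p = 0.0016). Ogn had 16.3 and 28.5 CPM in stellate cells after BDL, against 755 and 494 CPM in uninjured Gli1+ cells (-4.76 ± 0.42 SE, adjusted p = 0.000789). Among metalloproteinases, Mmp14, a membrane-bound collagenase, was within 4-fold in each left-out fit, with 236 and 252 CPM in stellate cells after BDL and 300.0 and 252 CPM in uninjured Gli1+ cells. Adamts1, a protease of proteoglycans, was higher, with 349.6 and 391 CPM in stellate cells after BDL, against 62.7 and 57.1 CPM in uninjured Gli1+ cells (2.61 ± 0.33 SE, adjusted p = 0.00268).

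Acta2, the best-known contractile gene of myofibroblasts, stood between uninjured stellate and uninjured Gli1+ levels after BDL. Smooth muscle genes are switched on by serum response factor, which binds CArG boxes in their promoters. Such a box was searched here as the letters CC, then 6 letters of which at least 5 were A or T, then GG. Of the contractile genes, 3 of the 19 found in the RefSeq promoter table (of 23 listed) had a match within the 250 bases before their start, and 2338 of all 27025 symbols in it had one (8.65%). Those 3 promoters are shown because their genes had 3 different outcomes: Acta2 was not resolved, Cnn2 was called higher and Myl9 was within 4-fold. The bases end at the one before the RefSeq start, the build is GRCm38.p6, and capitals mark the matches (both strands were searched, and a match on either strand is one on the other).
Acta2, chr19:34255374-34255493, minus strand: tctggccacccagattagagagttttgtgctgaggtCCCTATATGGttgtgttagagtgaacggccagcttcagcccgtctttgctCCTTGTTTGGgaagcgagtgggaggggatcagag
Cnn2, chr10:79988480-79988599, plus strand: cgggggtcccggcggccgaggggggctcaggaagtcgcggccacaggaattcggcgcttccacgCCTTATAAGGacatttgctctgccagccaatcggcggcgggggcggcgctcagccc
Myl9, chr2:156775284-156775463, plus strand: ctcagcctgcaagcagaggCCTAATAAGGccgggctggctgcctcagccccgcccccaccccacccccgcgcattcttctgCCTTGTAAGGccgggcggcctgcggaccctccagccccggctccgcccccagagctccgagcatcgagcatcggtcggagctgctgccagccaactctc
The matches are a description of letters and not evidence of binding.

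Acta2 (ENSMUSG00000035783.8, chr19:34241090-34255590, minus strand), which encodes smooth muscle actin, had 128 and 348 CPM in stellate cells after BDL, against 507 and 777 CPM in uninjured Gli1+ cells. Uninjured stellate cells had 11.1 and 16.1 CPM. Every stellate BDL library thus lay above both uninjured stellate libraries and below both uninjured Gli1+ libraries. Against uninjured stellate cells the log2 fold change was 3.88 (adjusted p = 0.0252), a call lost in 8 of 18 alternative settings (adjusted p up to 0.272), and against uninjured Gli1+ cells it was -1.57 (interval -2.65 to -0.48, adjusted p = 0.0968), which is not resolved. Of 23 tested contractile and cytoskeletal genes, 3 were higher (all genes: 2.58%) and 3 lower (all genes: 4.52%). The number higher was 1 without uninjured Gli1+ library 1 or 2, 5 without uninjured stellate library 1 or 2 and 0 without stellate BDL library 1 or 2, and the number lower 0 without uninjured Gli1+ library 1 or without stellate BDL library 1 or 2 and 1 without Gli1+ BDL library 1 or 2. Of the 22 with an average of at least 10 CPM, 9 were within 4-fold, a share below the 52.2% of all such genes, and 3 of them were so in each left-out fit. The number within 4-fold was 5 without uninjured Gli1+ library 1. Tpm1, a tropomyosin that lines actin filaments, had 709.5 and 680.1 CPM in stellate cells after BDL, against 502 and 647 CPM in uninjured Gli1+ cells (interval -0.78 to 1.35). Flna, the actin crosslinker filamin A, had 670.1 and 707 CPM in stellate cells after BDL, against 388 and 502 CPM in uninjured Gli1+ cells (interval 0.01 to 1.27). Myl9, a regulatory light chain of myosin named after its values were seen, had 251 and 245 CPM in stellate cells after BDL, against 267 and 404 CPM in uninjured Gli1+ cells (interval -1.67 to 0.87). Its interval was -2.48 to 1.07 without uninjured Gli1+ library 1, -2.18 to 1.34 without stellate BDL library 1 and -2.15 to 1.37 without stellate BDL library 2. These 3 genes differed by less than 2-fold between the group means. Cnn2, a calponin that binds actin, had 224 and 208 CPM in stellate cells after BDL, against 86.1 and 76.1 CPM in uninjured Gli1+ cells (1.40 ± 0.34 SE, adjusted p = 0.0441). The Cnn2 call was lost without uninjured Gli1+ library 1 (adjusted p = 0.128), without uninjured Gli1+ library 2 (adjusted p = 0.15), without Gli1+ BDL library 1 (adjusted p = 0.072), without Gli1+ BDL library 2 (adjusted p = 0.0705), without stellate BDL library 1 (adjusted p = 0.247) and without stellate BDL library 2 (adjusted p = 0.21).

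**Figure D3:**
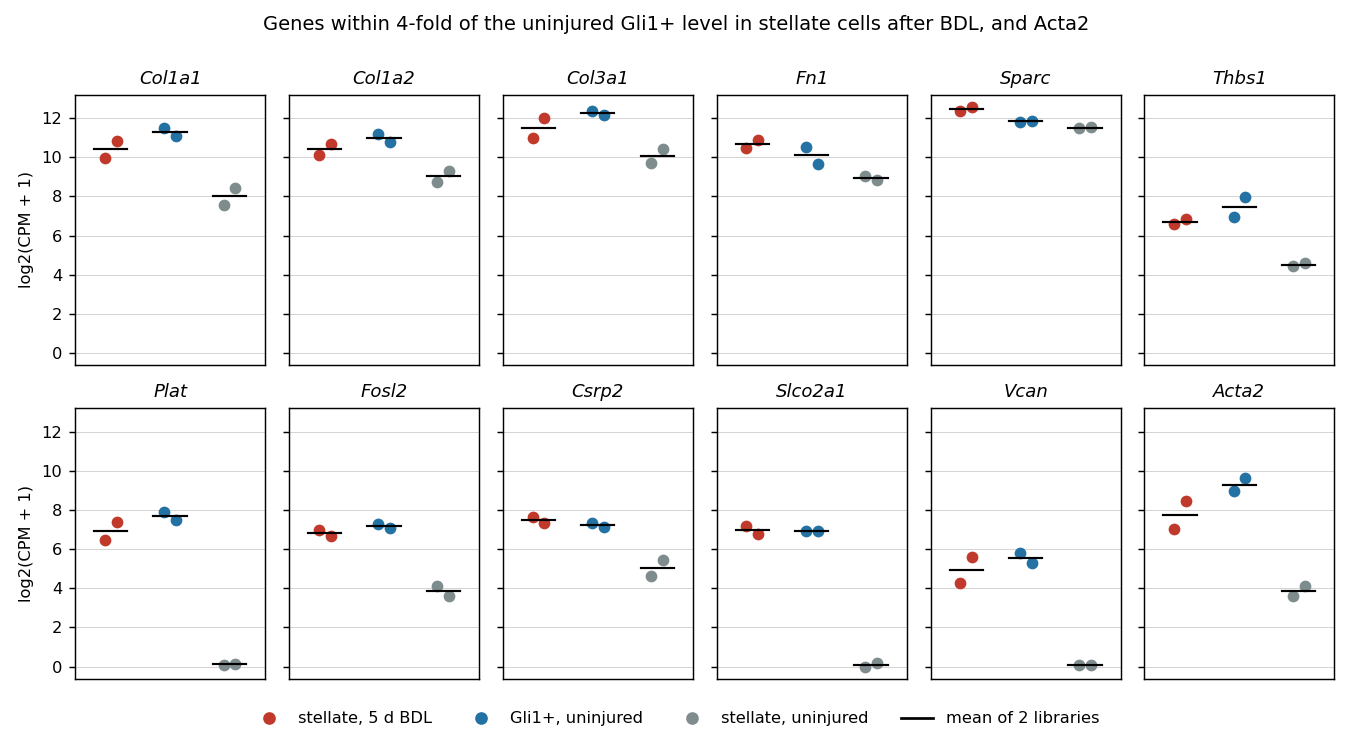
Expression in log2(CPM + 1) (y axis) of 12 genes in stellate cells 5 d after BDL, uninjured Gli1+ cells and uninjured stellate cells, with 1 point per library and a line at the mean of 2 libraries. All but Acta2 were within 4-fold of the uninjured Gli1+ level after BDL, and Plat, Slco2a1 and Vcan are close to 0 in uninjured stellate cells.

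A few genes were low in uninjured stellate cells and within 4-fold of the resting Gli1+ level after BDL. Between stellate BDL and uninjured stellate cells 37 of 16446 genes (0.225%) passed the threshold and all were higher. That count depended on the libraries, so that every call against uninjured stellate cells given here is lost in at least 1 left-out fit: it was 0 without stellate BDL library 2, 3 without stellate BDL library 1, 4 without Gli1+ BDL library 1 or without Gli1+ BDL library 2, 10 without uninjured Gli1+ library 1 or without uninjured Gli1+ library 2, 219 without uninjured stellate library 1 and 194 without uninjured stellate library 2. Plat was named by the rule, and Fosl2, Vcan, Slco2a1 and Csrp2 were chosen after their values were seen. Plat, tissue plasminogen activator, had 85.9 and 167 CPM in stellate cells after BDL and 238 and 177 CPM in uninjured Gli1+ cells, and 0.0612 and 0.104 CPM in uninjured stellate cells. Its interval against Gli1+ cells was -1.80 to 0.26, and against uninjured stellate cells its log2 fold change was 6.80 (adjusted p = 0.00148). Fosl2, an AP-1 transcription factor, had 124 and 99.4 CPM in stellate cells after BDL and 152 and 134 CPM in uninjured Gli1+ cells, and 16.6 and 11.0 CPM in uninjured stellate cells (interval against Gli1+ cells -1.16 to 0.45; against uninjured stellate cells 2.95, adjusted p = 0.0236). Vcan, the large proteoglycan versican, had 18.4 and 48.2 CPM in stellate cells after BDL and 53.9 and 38.6 CPM in uninjured Gli1+ cells, and 0.0612 and 0.0521 CPM in uninjured stellate cells (interval -1.99 to 0.81; 4.87, adjusted p = 0.0252). In these 3 genes both uninjured stellate libraries lay below all 4 libraries compared. Without 1 library the interval was -2.36 to 0.40 without uninjured Gli1+ library 2 and -2.56 to 0.07 without stellate BDL library 2 for Plat, and -2.22 to 1.51 without uninjured Gli1+ library 1, -2.67 to 1.01 without uninjured Gli1+ library 2, -2.26 to 1.07 without Gli1+ BDL library 1, -2.23 to 1.05 without Gli1+ BDL library 2 and -3.02 to 0.50 without stellate BDL library 2 for Vcan. Slco2a1, a prostaglandin transporter, had 142 and 107 CPM in stellate cells after BDL, 121 and 119.9 CPM in uninjured Gli1+ cells and 0 and 0.156 CPM in uninjured stellate cells (interval -0.90 to 0.97; 6.85, adjusted p = 0.00121). Csrp2, a LIM protein of smooth muscle, had 199.9 and 161 CPM in stellate cells after BDL, 159 and 138 CPM in uninjured Gli1+ cells and 23.6 and 42.5 CPM in uninjured stellate cells (interval -0.54 to 1.10; 2.46, adjusted p = 0.045). Timp1, an inhibitor of metalloproteinases, was not resolved against Gli1+ cells, with 122 and 397 CPM in stellate cells after BDL, 69.3 and 339.7 CPM in uninjured Gli1+ cells and 0.183 and 2.09 CPM in uninjured stellate cells (6.86 against uninjured stellate cells, adjusted p = 0.0236). Over 18 alternative settings the call against uninjured stellate cells was lost in 13 for Csrp2, 10 for Vcan and 9 for Timp1. It was lost in 8 for Fosl2 and in 2 each for Plat and Slco2a1. Hepatocyte transcripts, and endothelial ones other than Plvap and Eng, also differed between the stellate groups. Plvap and Eng are the endothelial markers called against uninjured Gli1+ cells. With these 2 included, endothelial totals were 15919 and 10541 CPM in stellate BDL libraries and 8387 and 14513 CPM in uninjured stellate libraries. Those totals overlapped, so the endothelial difference depends on leaving out Plvap and Eng. The 16 endothelial markers other than Plvap and Eng summed to 3728 and 2811 CPM in stellate cells after BDL, 1371 and 326 CPM in uninjured Gli1+ cells and 888 and 192 CPM in uninjured stellate cells, with 12 of 16 above the Gli1+ libraries without overlap. The sum of the 20 hepatocyte markers was 2576 and 2899 CPM in stellate cells after BDL, 1598 and 385 CPM in uninjured Gli1+ cells and 339.9 and 123 CPM in uninjured stellate cells, and 0 of either list were at 0 in a stellate BDL library. Of the 20, 2 were called higher than in uninjured Gli1+ cells (all genes: 2.58%), and 0 of these calls held. The part of endothelial and hepatocyte transcripts in these changes was not tested.

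Genes of energy supply and protein folding were the lists most often within 4-fold. All 24 nuclear genes of oxidative phosphorylation were within 4-fold, against 52.2% of all genes at such levels, 17 of them in each left-out fit, with a median log2 fold change of -0.51. The log2 fold change was negative in 22 of these 24 genes, so most lay somewhat lower in stellate cells after BDL. A within 4-fold share also depends on the width of the intervals. Atp5b, a subunit of ATP synthase, had 579 and 568 CPM in stellate cells after BDL, against 869 and 797 CPM in uninjured Gli1+ cells (interval -1.18 to 0.11). Of 22 genes at such levels of the unfolded protein and integrated stress response, 18 were within 4-fold, 9 of them in each left-out fit. Hsp90b1, a chaperone of the endoplasmic reticulum, had 1089 and 892 CPM in stellate cells after BDL, against 681 and 532 CPM in uninjured Gli1+ cells (interval -0.06 to 1.49). The shares were close to that of all genes in cholesterol and fatty acid synthesis (13 of 23), immediate early and heat shock genes (11 of 22) and antigen presentation (10 of 19). The first of these counts was 8 without uninjured Gli1+ library 1, 5 without uninjured Gli1+ library 2 or without stellate BDL library 2 and 7 without stellate BDL library 1, and the second was 6 without uninjured Gli1+ library 2 or without stellate BDL library 2. B2m, the light chain of class I molecules, had 7731 and 8245 CPM in stellate cells after BDL, against 4654 and 6647 CPM in uninjured Gli1+ cells (interval -0.51 to 1.55), and its interval was -0.54 to 2.10 without uninjured Gli1+ library 2 and -0.95 to 2.09 without stellate BDL library 1. Cd74, the invariant chain of class II molecules, had 324 and 91.7 CPM in stellate cells after BDL and 999.9 and 3862 CPM in uninjured Gli1+ cells and was not resolved. None of 18 macrophage markers was called, and they summed to 2239.6 and 1532 CPM in stellate cells after BDL and 4417 and 2257 CPM in uninjured Gli1+ cells. In uninjured stellate libraries 1 and 2 they summed to 14021 and 85.1 CPM. That gap entered the shared estimate of spread, so the missing calls do not show equal macrophage content. Of 30 cell cycle genes 24 were not resolved.

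In the PDGF and TGF-beta pathways, which drive myofibroblasts, Pdgfrb and Lrrc32 were higher in stellate cells after BDL than in uninjured Gli1+ cells. Of 25 tested genes, 5 were higher (all genes: 2.58%) and 1 lower (all genes: 4.52%). Of the 22 with an average of at least 10 CPM, 8 were within 4-fold, a share below the 52.2% of all such genes. The number within 4-fold was 5 without uninjured Gli1+ library 1, the number higher 3 without uninjured Gli1+ library 2 or without Gli1+ BDL library 1 or 2 and 2 without stellate BDL library 1 or 2 and the number lower 0 without uninjured Gli1+ library 1 or without stellate BDL library 1 or 2, 2 without uninjured stellate library 1 and 3 without uninjured stellate library 2. Itgav, the alpha V integrin chain that can release active TGF-beta, had 211 and 268 CPM in stellate cells after BDL, against 224 and 199 CPM in uninjured Gli1+ cells (interval -0.71 to 1.05). Pdgfra, the PDGF receptor that marks fibroblasts, had 446 and 464 CPM in stellate cells after BDL, against 249.7 and 191 CPM in uninjured Gli1+ cells (interval 0.22 to 1.90), and its interval was 0.14 to 2.36 without uninjured Gli1+ library 1, -0.09 to 2.26 without stellate BDL library 1 and -0.15 to 2.20 without stellate BDL library 2. Pdgfrb, the receptor typical of pericytes and stellate cells, was higher, with 504 and 831 CPM in stellate cells after BDL, against 102 and 44.3 CPM in uninjured Gli1+ cells (3.25 ± 0.51 SE, adjusted p = 0.00741), a call lost without stellate BDL library 2 (adjusted p = 0.0903). Lrrc32, which holds latent TGF-beta at the cell surface, was higher and held, with 411 and 493 CPM in stellate cells after BDL, against 57.4 and 41.2 CPM in uninjured Gli1+ cells (3.18 ± 0.37 SE, adjusted p = 0.00207).

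The uninjured Gli1+ libraries also held transcripts of mesothelial and bile duct cells. Counts of both marker lists stand against 4.52% lower among all genes. All 12 mesothelial markers were lower in stellate cells after BDL, 11 of them held. Their sum was 49.2 and 81.0 CPM in stellate cells after BDL, against 5347 and 12379 CPM in uninjured Gli1+ cells, with 1 and 0 of 12 markers at 0 in stellate BDL libraries 1 and 2. Msln, mesothelin, had 0.934 and 1.02 CPM in stellate cells after BDL, against 768 and 2532 CPM in uninjured Gli1+ cells (-9.46 ± 0.57 SE, adjusted p = 0.000329). Of 14 bile duct markers 9 were lower, 3 of them held, and that count was 4 without uninjured Gli1+ library 1 and 3 without stellate BDL library 1 or 2. Without Spp1, which had 177 and 743 CPM in stellate cells after BDL and 2140.2 and 259 CPM in uninjured Gli1+ cells, the other 13 summed to 5.20 and 15.8 CPM in stellate cells after BDL, against 2294 and 3012 CPM in uninjured Gli1+ cells. Among these 13, 5 and 3 were at 0 in stellate BDL libraries 1 and 2. Epcam, which marks bile duct epithelium, had 0.467 and 1.10 CPM in stellate cells after BDL, against 211 and 172 CPM in uninjured Gli1+ cells (-6.77 ± 0.58 SE, adjusted p = 0.000745). Krt19 stands in both lists. The part of such transcripts in the genes described as lower in stellate cells, such as C3, Dmbt1, Rspo1, Met and Aldh1a2, was not tested. Plvap, an endothelial marker, was higher in stellate cells after BDL, with 10379 and 6196 CPM in them, against 139 and 157 CPM in uninjured Gli1+ cells (5.75 ± 0.44 SE, adjusted p = 0.000522), and uninjured stellate cells had 5929 and 12009 CPM. Of 18 endothelial markers 2 were called higher (all genes: 2.58%), Plvap and Eng, and the Plvap call alone held. The log2 fold change of Eng was 3.20 (adjusted p = 0.00434). The 16 markers summed above leave out these 2 called genes, so the lack of a call among the 16 follows from that choice. Of all genes, 48.7% did not overlap between the groups.

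Most portal fibroblast genes were lower in stellate cells after BDL than in uninjured Gli1+ cells. Of 24 portal and adventitial fibroblast genes, 15 were lower, 13 of them held, none was higher and 2 were within 4-fold. The number within 4-fold was 0 without uninjured Gli1+ library 1 or without stellate BDL library 1 and 1 without stellate BDL library 2. Among all genes 4.52% were lower, but the list was chosen with earlier results of these data known, so this is not an independent test. The median log2 fold change of the list was -5.62. Eln, Fbln1, Fbln2, Mfap4 and Pdgfra, described above, belong to this list too and are counted again here. Igfbp6 (ENSMUSG00000023046.6, chr15:102144362-102149511, plus strand), which binds insulin-like growth factor 2, had 1.40 and 3.57 CPM in stellate cells after BDL, against 2659.6 and 2607 CPM in uninjured Gli1+ cells, a log2 fold change of -9.64 ± 0.41 SE (adjusted p = 6.59e-05). Clec3b, the plasminogen-binding protein tetranectin, had 0.292 and 0.255 CPM in stellate cells after BDL, against 1011 and 373 CPM in uninjured Gli1+ cells (-8.92 ± 0.78 SE, adjusted p = 0.000789). Penk, the precursor of enkephalins, had 1 read in stellate cells after BDL, against 346 and 166 CPM in uninjured Gli1+ cells, and the ratio of Gli1+ over stellate CPM was 6837 (exact 95% interval 1227 to 270070), from counting error only (adjusted p = 0.00113). In all 3 genes the groups were far apart, and the stellate BDL libraries held few reads. Dpt, the matrix protein dermatopontin, named after its values were seen, had 22.9 and 21.7 CPM in stellate cells after BDL, against 2024 and 1192 CPM in uninjured Gli1+ cells (-6.06 ± 0.43 SE, adjusted p = 0.000522), and 0.734 and 1.72 CPM in uninjured stellate cells (adjusted p = 0.0252 for stellate BDL against uninjured stellate cells). The Dpt call against uninjured stellate cells was lost in 10 of 18 alternative settings. Thy1, a surface marker of portal fibroblasts, was not resolved, with 4.73 and 4.67 CPM in stellate cells after BDL and 41.5 and 25.4 CPM in uninjured Gli1+ cells (adjusted p = 0.0601).

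**Figure D4:**
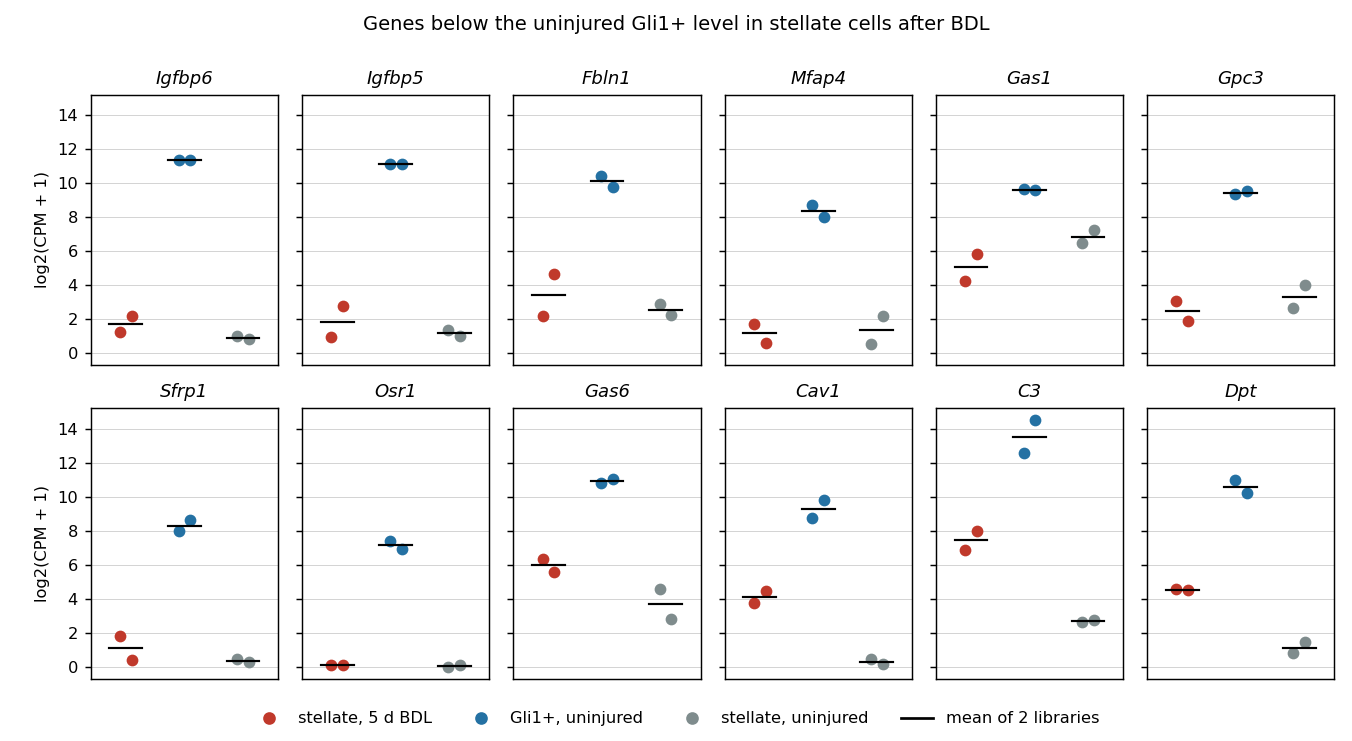
Expression in log2(CPM + 1) (y axis) of 12 genes in stellate cells 5 d after BDL, uninjured Gli1+ cells and uninjured stellate cells, with 1 point per library and a line at the mean of 2 libraries. Uninjured Gli1+ libraries lie above all stellate libraries in each panel, and C3, Cav1 and Dpt are higher after BDL than in uninjured stellate cells without reaching the Gli1+ level.

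Of the Hedgehog genes, Gas1 and Gpc3 were lower and Hhip was higher in stellate cells after BDL than in uninjured Gli1+ cells. Beside 2.58% higher and 4.52% lower among all genes, their list had 16 members with an average of at least 10 CPM. Of 21 tested genes, 7 were lower, 2 higher and 3 within 4-fold, and 2 of the lower calls held. The number lower was 3 without uninjured Gli1+ library 1 and 2 without stellate BDL library 1 or 2, the number higher 1 without uninjured Gli1+ library 1 or 2 or without stellate BDL library 1 or 2 and the number within 4-fold 1 without uninjured Gli1+ library 1 and 0 without stellate BDL library 1. Gas1, a co-receptor that helps Hedgehog ligands reach their receptor, had 18.1 and 56.2 CPM in stellate cells after BDL, against 802 and 763 CPM in uninjured Gli1+ cells (-4.57 ± 0.59 SE, adjusted p = 0.00321). Gpc3, a glypican that binds Hedgehog ligands, had 7.53 and 2.72 CPM in stellate cells after BDL, against 649.6 and 744 CPM in uninjured Gli1+ cells (-6.95 ± 0.57 SE, adjusted p = 0.000644). Hhip, a decoy receptor that binds the ligands, had 279 and 243 CPM in stellate cells after BDL, against 2.22 and 7.99 CPM in uninjured Gli1+ cells, and was higher (5.60 ± 0.58 SE, adjusted p = 0.00153). These 3 calls held, and the groups did not overlap in any of the 3 genes. Gli3, the factor that acts mainly as a repressor of the pathway, was within 4-fold, with 37.2 and 54.5 CPM in stellate cells after BDL and 32.9 and 26.5 CPM in uninjured Gli1+ cells (interval -0.44 to 1.63; -0.53 to 2.02 without uninjured Gli1+ library 1 and -0.55 to 2.27 without stellate BDL library 1).

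Different secreted Wnt signals were high in each population, while the BMP ligands named here were higher in stellate cells after BDL. Of the tested Wnt genes, 14 averaged at least 10 CPM. Among all genes tested, 2.58% were higher and 4.52% lower. Of 21 tested R-spondins, Wnt ligands and secreted inhibitors, 3 were higher, 8 lower and 1 within 4-fold, and the number lower was 3 without uninjured Gli1+ library 1 or without stellate BDL library 1, 5 without Gli1+ BDL library 1 or 2 and 4 without stellate BDL library 2, and the number within 4-fold 2 without uninjured Gli1+ library 2. Rspo1 and Rspo3, R-spondins that strengthen Wnt signals in neighbouring cells, differed in opposite directions. Rspo3 had 648 and 589 CPM in stellate cells after BDL, against 46.4 and 14.6 CPM in uninjured Gli1+ cells (4.51 ± 0.53 SE, adjusted p = 0.00215). Rspo1 had 0.175 and 0.255 CPM in stellate cells after BDL, against 295 and 334 CPM in uninjured Gli1+ cells (-8.02 ± 0.59 SE, adjusted p = 0.000522), and it stands in the mesothelial marker list too. Frzb and Sfrp4, secreted Wnt inhibitors of the same family, differed in opposite directions too. Frzb had 404 and 525 CPM in stellate cells after BDL, against 2.40 and 0.228 CPM in uninjured Gli1+ cells, and was higher (7.82 ± 0.74 SE, adjusted p = 0.00107). Sfrp4 had 2 reads in stellate cells after BDL, against 196 and 142 CPM in uninjured Gli1+ cells, and was lower, with a ratio of Gli1+ over stellate CPM of 2356 (exact 95% interval 652 to 19457) and an adjusted p of 0.00161. Of 25 tested BMP ligands, antagonists and targets, 6 were higher (all genes: 2.58%) and 5 lower (all genes: 4.52%). In 15 of the 25 the log2 fold change was negative and in 10 positive, with a median of -0.80. The number higher was 3 without uninjured Gli1+ library 1 or without stellate BDL library 1 or 2 and the number lower 2 without uninjured Gli1+ library 1, 3 without uninjured Gli1+ library 2 or without Gli1+ BDL library 1 or 2, 0 without stellate BDL library 1 and 1 without stellate BDL library 2. Gdf2, which encodes the circulating ligand BMP9, had 1597 and 1303 CPM in stellate cells after BDL, against 21.5 and 36.9 CPM in uninjured Gli1+ cells (5.63 ± 0.47 SE, adjusted p = 0.000698). Bmp5 had 173 and 125 CPM in stellate cells after BDL and no read in uninjured Gli1+ cells, and was at least 1476-fold higher, with 3 reads over the group as the floor (adjusted p = 0.001). Bmp10 had 104 and 84.6 CPM in stellate cells after BDL, against 2 reads in uninjured Gli1+ cells, a ratio of 1388 (exact 95% interval 384 to 11463) and an adjusted p of 0.00161. All 3 ligands were higher, and all 3 calls held.

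Growth factors and their receptors also differed in both directions. Of 28 tested genes of the IGF, HGF, FGF and VEGF systems, 3 were higher (all genes: 2.58%) and 9 lower (all genes: 4.52%). Of the 24 with an average of at least 10 CPM, 4 were within 4-fold (all such genes: 52.2%). The number lower was 4 without stellate BDL library 1 or 2 and the number within 4-fold 2 without Gli1+ BDL library 1 or 2 and 1 without stellate BDL library 1. Hgf, the growth factor for hepatocytes and bile duct cells, was higher, with 955 and 606 CPM in stellate cells after BDL, against 7.28 and 7.02 CPM in uninjured Gli1+ cells (6.55 ± 0.64 SE, adjusted p = 0.0012). Its receptor Met had 0.117 and 0.850 CPM in stellate cells after BDL, against 59.1 and 119 CPM in uninjured Gli1+ cells, and was lower (-5.89 ± 0.73 SE, adjusted p = 0.00265). Gas6, the ligand of TAM receptors, had 80.9 and 46.5 CPM in stellate cells after BDL, against 1809.8 and 2114 CPM in uninjured Gli1+ cells (-4.97 ± 0.54 SE, adjusted p = 0.00169). Fgfr2, an FGF receptor, had 835 and 1116 CPM in stellate cells after BDL, against 80.4 and 29.8 CPM in uninjured Gli1+ cells (4.27 ± 0.49 SE, adjusted p = 0.00204). All 4 calls held. Hgf lost its call in limma-voom (adjusted p = 0.0572). Igf1r, the receptor of insulin-like growth factor 1, was within 4-fold in each left-out fit, with 94.2 and 121 CPM in stellate cells after BDL and 78.2 and 86.8 CPM in uninjured Gli1+ cells (interval -0.44 to 1.18).

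The listed stellate identity genes were higher in stellate cells after BDL than in uninjured Gli1+ cells. The list was chosen with earlier results of these data known, so its count is not independent support for identity. All 24 listed stellate genes were called higher, against 2.58% of all genes, and 13 of them held. Hhip, Hgf, Gdf2 and Pdgfrb, described above, are among the 24, so those calls are counted again here. The median log2 fold change of the list was 4.45, and the count of higher genes was 14 without stellate BDL library 1 and 15 without stellate BDL library 2. The log2 fold change of Lrat, whose values are given above, was 6.44 ± 0.61 SE. Reln, the secreted glycoprotein reelin, had 3774 and 3788 CPM in stellate cells after BDL, against 51.9 and 23.4 CPM in uninjured Gli1+ cells (6.72 ± 0.43 SE, adjusted p = 0.000379). The 24 genes summed to 49151 and 41343 CPM in stellate cells after BDL, against 66206 and 97314 CPM in uninjured stellate cells, with a median log2 fold change of -0.37. In that comparison 0 of them passed the threshold in either direction by limma, limma-voom or edgeR. DESeq2 called 2 of them lower, and 3 were lower by limma at an unadjusted p under 0.05. Uninjured stellate cells had 1832 and 2784 CPM of Lrat and 3527 and 3572 CPM of Reln. Aldh1a2, an enzyme that makes retinoic acid, ran the other way, with 0.759 and 1.10 CPM in stellate cells after BDL, against 73.2 and 189 CPM in uninjured Gli1+ cells (-5.95 ± 0.73 SE, adjusted p = 0.00254), and its adjusted p was 0.052 in limma-voom. Among receptors for vasoactive and related signals 12 of 24 were higher (all genes: 2.58%), 5 of them held, and none was lower (all genes: 4.52%). That count was 7 without uninjured Gli1+ library 1 or 2 and 5 without stellate BDL library 1 or 2. Ednra, a receptor for endothelin, had 564 and 428 CPM in stellate cells after BDL, against 14.2 and 4.74 CPM in uninjured Gli1+ cells (5.72 ± 0.53 SE, adjusted p = 0.00103). Pth1r, the receptor of parathyroid hormone, had 518 and 802 CPM in stellate cells after BDL, against 32.4 and 21.1 CPM in uninjured Gli1+ cells (4.57 ± 0.60 SE, adjusted p = 0.00342), and it stands in the stellate identity list too. Both receptor calls held, and the groups did not overlap.

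**Figure D5:**
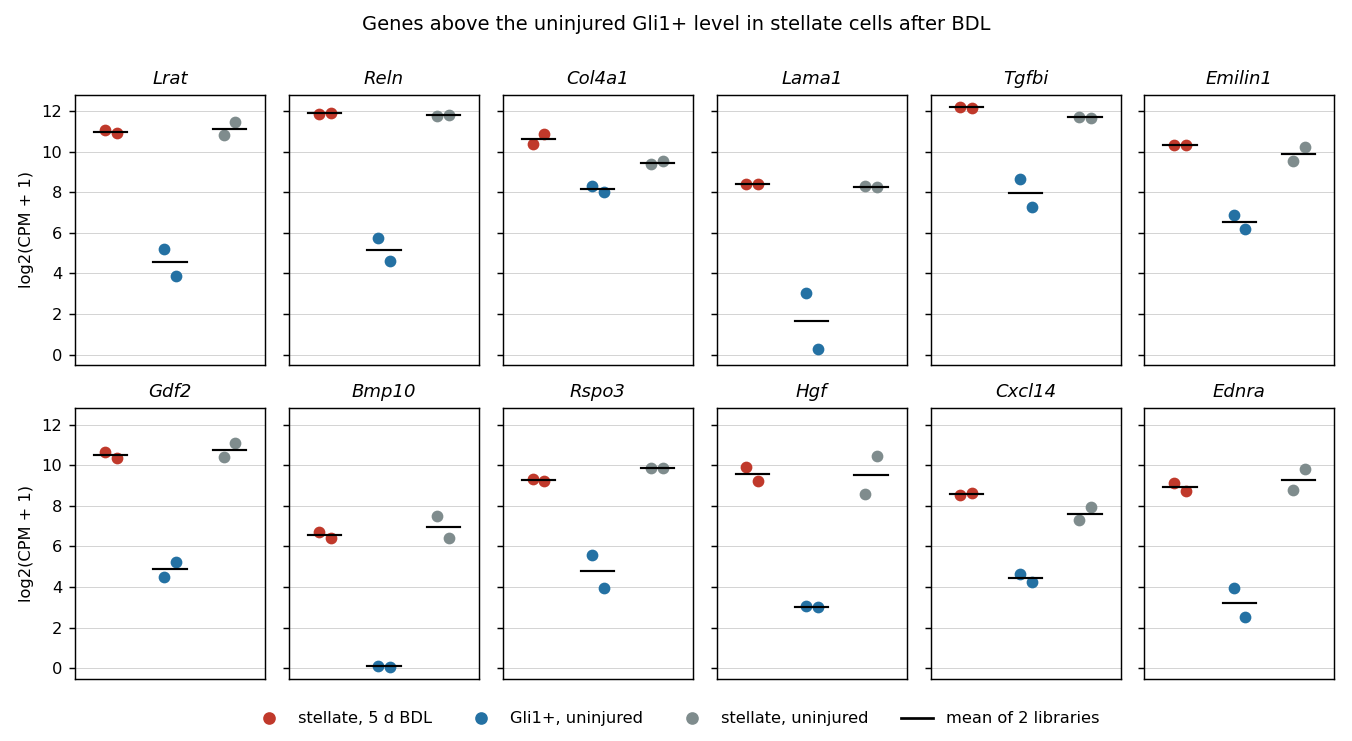
Expression in log2(CPM + 1) (y axis) of 12 genes in stellate cells 5 d after BDL, uninjured Gli1+ cells and uninjured stellate cells, with 1 point per library and a line at the mean of 2 libraries. Both stellate groups lie above the uninjured Gli1+ libraries in each panel.

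Transcription factors of mesenchymal cells differed in both directions. Of 34 tested ones, 10 were higher (all genes: 2.58%) and 6 lower (all genes: 4.52%) in stellate cells after BDL. The number higher was 4 without uninjured Gli1+ library 1, 6 without uninjured Gli1+ library 2 and 1 without stellate BDL library 1 or 2 and the number lower 2 without stellate BDL library 1 and 3 without stellate BDL library 2. Osr1, a zinc finger factor of the lateral mesoderm, had 2 reads in stellate cells after BDL, against 168 and 119 CPM in uninjured Gli1+ cells, a ratio of Gli1+ over stellate CPM of 1996 (exact 95% interval 552 to 16490) and an adjusted p of 0.0016. Ebf1, an early B-cell factor also made by fibroblasts, had 0.525 and 1.53 CPM in stellate cells after BDL, against 165 and 70.1 CPM in uninjured Gli1+ cells (-5.79 ± 0.77 SE, adjusted p = 0.00366). Both calls held, and none of the higher ones did. Tcf21, a factor of quiescent stellate cells, had 566 and 527 CPM in stellate cells after BDL, against 71.5 and 54.9 CPM in uninjured Gli1+ cells (3.10 ± 0.41 SE, adjusted p = 0.00345), a call lost without stellate BDL library 1 (adjusted p = 0.0506).

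Cav1 and Cavin3, of the caveolar coat, were lower in stellate cells after BDL than in uninjured Gli1+ cells. Cav1, the main coat protein of caveolae, had 12.4 and 21.3 CPM in stellate cells after BDL, against 427 and 885 CPM in uninjured Gli1+ cells (-5.16 ± 0.54 SE, adjusted p = 0.00153), and 0.367 and 0.104 CPM in uninjured stellate cells. Cavin3, which shapes caveolae with it, had 72.0 and 81.1 CPM in stellate cells after BDL, against 478 and 644 CPM in uninjured Gli1+ cells (-2.84 ± 0.34 SE, adjusted p = 0.00224). Cav1 lay between uninjured stellate and uninjured Gli1+ levels after BDL, and both calls held. Of 24 tested genes of caveolae and adhesion, 7 were lower (all genes: 4.52%) and 3 higher (all genes: 2.58%). Of the 20 with an average of at least 10 CPM, 6 were within 4-fold (all such genes: 52.2%). The number lower was 4 without stellate BDL library 1 and 3 without stellate BDL library 2, the number higher 1 without stellate BDL library 1 or 2 and the number within 4-fold 2 without uninjured Gli1+ library 1 or without stellate BDL library 1 or 2 and 3 without uninjured Gli1+ library 2. Among integrins, Itgb3, the partner of the alpha V chain, was higher and held, with 302 and 234 CPM in stellate cells after BDL, against 15.4 and 3.88 CPM in uninjured Gli1+ cells (4.90 ± 0.58 SE, adjusted p = 0.00217). Ddr2, a receptor for fibrillar collagen, was within 4-fold in each left-out fit, with 283 and 306 CPM in stellate cells after BDL and 253 and 168 CPM in uninjured Gli1+ cells.

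Among secreted defence genes, C3 and Dmbt1 were lower in stellate cells after BDL than in uninjured Gli1+ cells. C3, the central complement component, had 116 and 254 CPM in stellate cells after BDL, against 6036 and 23184 CPM in uninjured Gli1+ cells (-6.10 ± 0.61 SE, adjusted p = 0.00129). In uninjured stellate cells it had 5.20 and 5.79 CPM, and the difference from stellate BDL cells had an adjusted p of 0.0257. That call was lost in 10 of 18 alternative settings. C3 thus lay above uninjured stellate cells and below uninjured Gli1+ cells in every stellate BDL library. Of 27 tested complement genes, 2 were lower (all genes: 4.52%) and 5 higher (all genes: 2.58%). Of the 21 with an average of at least 10 CPM, 5 were within 4-fold (all such genes: 52.2%). The number lower was 1 without uninjured Gli1+ library 2 or without Gli1+ BDL library 1 or 2 or without stellate BDL library 1 or 2 and 5 without uninjured stellate library 1 or 2, the number higher 3 without uninjured Gli1+ library 2, 1 without stellate BDL library 1 and 2 without stellate BDL library 2 and the number within 4-fold 2 without uninjured Gli1+ library 1 and 3 without stellate BDL library 1 or 2. Of 24 tested secreted defence and acute-phase genes 7 were lower, 6 of them held, and 4 were higher, none of which held. The number higher was 0 without uninjured Gli1+ library 1 or without stellate BDL library 1 or 2, 2 without uninjured Gli1+ library 2 or without Gli1+ BDL library 1 or 2 and 7 without uninjured stellate library 1 or 2. Dmbt1, a mucosal scavenger receptor, had 1.58 and 4.42 CPM in stellate cells after BDL, against 5404 and 1384 CPM in uninjured Gli1+ cells (-9.52 ± 0.73 SE, adjusted p = 0.000522), and its adjusted p was 0.0712 in limma-voom. The chemokine Cxcl14 was higher, with 368 and 401 CPM in stellate cells after BDL, against 23.9 and 17.9 CPM in uninjured Gli1+ cells (4.15 ± 0.44 SE, adjusted p = 0.0016). Il34, a ligand of the macrophage growth factor receptor, had 180.0 and 213 CPM in stellate cells after BDL, against 0.533 and 0.0571 CPM in uninjured Gli1+ cells (7.27 ± 0.89 SE, adjusted p = 0.00254). Both calls held. Both belong to the 24 tested chemokines, cytokines and growth factors for leukocytes. In that list 4 were higher (all genes: 2.58%) and 1 lower (all genes: 4.52%). Of the 16 with an average of at least 10 CPM, 6 were within 4-fold (all such genes: 52.2%). Of that list, the number higher was 2 without uninjured Gli1+ library 1 or without stellate BDL library 1 or 2, the number lower 0 without uninjured Gli1+ library 1 or without Gli1+ BDL library 1 or 2 or without stellate BDL library 1, 2 without uninjured Gli1+ library 2 and 3 without uninjured stellate library 1 or 2 and the number within 4-fold 2 without uninjured Gli1+ library 1 or without stellate BDL library 2, 1 without uninjured Gli1+ library 2 and 3 without stellate BDL library 1.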

How the data were processed

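Per the labels, livers were digested with pronase and collagenase, cells were enriched on a gradient and sorted, and libraries were made with SMART-Seq2, which does not mark strand, so reads of overlapping antisense genes cannot be told apart. The RNA-seq was deposited as CPM values (read counts scaled to a fixed library total) per gene and library. The submitters' processing notes name FastQC, STAR 2.5.2b, featureCounts, DESeq2 and the mm10 build. In the deposited CPM values 100% were whole multiples of 1 read, within 0.1 read, so reads and depths were recovered (11261775 to 19180370 per library). Symbols were matched for 30214 of 30395 identifiers from the reference annotation, and 9 of 790 list genes were not found.

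Log2(CPM + 1) was fitted with limma 3.58.1 in R 4.3.3 with a mean-variance trend, a mean for each of the 4 groups and 4 residual degrees of freedom, over the 16446 genes that reached 1 CPM in 2 or more libraries. P-values were Benjamini-Hochberg adjusted with a threshold of 0.05. Intervals of ratios with 1 to 3 reads in a group are exact and cover counting error only. Named genes were 10 set ones, the 8 largest differences per direction with at least 20 CPM and no overlap, and per list up to 5 called per direction, 4 within 4-fold and 4 not resolved of highest CPM. The comparison, rules and 36 gene lists were chosen with earlier results of these data known. edgeR 4.0.16 on the recovered reads called 632 genes, and DESeq2 1.42.0 and limma-voom were further alternatives.

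On simulated reads over 15729 genes, with 100 genes changed at each fold, the fit recovered 15% of 4-fold and 86% of 16-fold changes. Of 107 calls there, 6 were unchanged genes. The simulation gave every gene the same set spread, not estimated from these data, and changed few genes, so its rates need not hold here. In the data, intervals of genes with at least 10 CPM reached a median of 1.29 log2 units to each side. Genes not called can thus differ by several fold. The labels do not say whether replicate numbers pair the samples. Deviations of same-numbered libraries correlated at -0.112 to 0.112, which cannot exclude that they share an animal or batch. Reads of near-identical genes may be split or lost by counting.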

Additional observations from a re-analysis of the deposited data

How the results depend on the processing

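The number of genes called between stellate cells after BDL and uninjured Gli1+ cells (1167) was 241 to 1446 when 1 library was left out, 546 with no filter on low values, 632 in edgeR, 690 in limma-voom and 1869 in DESeq2. Of these, 424 were higher, against 76 to 546 with 1 library left out, 237 with no filter, 257 in edgeR and 763 in DESeq2. The other 743 were lower, against 165 to 905 with 1 library left out, 309 with no filter, 375 in edgeR and 389 in limma-voom. The 5263 genes within 4-fold became 3299 to 6052 with 1 library left out. The 37 genes called between stellate BDL and uninjured stellate cells were the least stable count, with 0 to 219 when 1 library was left out, 22 with TMM scaling and with DESeq2 size factors, 19 with a pseudocount of 5, 6 with no filter, 56 with a filter of 10 CPM, 62 in edgeR, 1006 in DESeq2 and 0 in limma-voom. In the limma fit on log2(CPM + 1), 1968 genes had an unadjusted p under 0.05 in that comparison. With the replicate number, which is not stated to pair the libraries, as a block, 954 genes were called against uninjured Gli1+ cells (331 higher, 623 lower). In that fit 5110 were within 4-fold, 18 were called against uninjured stellate cells, and Cnn2 (adjusted p = 0.072) and Col5a1 (adjusted p = 0.0593) lost their calls. No called gene named here changed direction. Among uncalled ones the log2 fold change against uninjured Gli1+ cells changed sign when 1 library was left out for 4 genes: it was -0.17 to 0.24 for Slco2a1 and -1.26 to 0.077 for Vcan (the negative Slco2a1 value and the positive Vcan value without stellate BDL library 1), -0.62 to 1.65 for Timp1 (negative without uninjured Gli1+ library 1, and -0.33 without stellate BDL library 2) and -2.56 to 0.48 for Spp1 (positive without uninjured Gli1+ library 1). The cause of these shifts was not tested.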
